A study of Mus musculus with 26 samples.

Results

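The 10 genes described here encode receptor chains for cytokines that rise in maternal inflammation. They are Il6ra and Il6st for interleukin-6, Il17ra and Il17rd for interleukin-17, Il1r1 and Il1rap for interleukin-1, Tnfrsf1a and Tnfrsf1b for tumor necrosis factor, and Il10ra and Il10rb for interleukin-10. They were chosen by symbol from a list of receptors, by a rule that uses none of their measured values although earlier results of these data were known, and are 10 of the 31053 genes in the files of the sorted cells. All of them are also among the 30406 genes that every nuclei library lists.

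The sorted cells were microglia of wild-type C57Bl/6N mice whose mothers received saline or poly(I:C) on E12.5. Poly(I:C) is a synthetic analog of viral double-stranded RNA and sets off maternal immune activation (MIA). They came from the somatosensory cortex at E13 and E15, with 3 libraries per treatment and age, and at P14, with 4 saline and 2 MIA libraries, where saline replicate 3 was split into a female and a male library. The nuclei were those of the same cortical region of male E15 embryos, wild type or Csf1r-/-, after saline or MIA, with 2 libraries per group. E13 and E15 are the whole days that the labels give. The paper dates these harvests later in the same day, so the time since injection was longer than the labels imply. Csf1r encodes the receptor that microglia need to develop, so the null embryos are a model of a cortex without microglia, and macrophages elsewhere in them are affected too. Microglia were sorted on Cd11b, Cx3cr1 and low Cd45, a gate that border macrophages can also enter. The embryonic microglia libraries each pooled several embryos, whereas the P14 and nuclei libraries came from few animals, and the p-values measure the spread between libraries. The nuclei came from 4 dams, with wild-type embryos that were littermates of the null ones, so libraries of both genotypes can share a litter, while the tests treat the 8 libraries as independent.

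Interleukin receptors of this kind are made of different chains. A chain that binds the ligand (IL6RA, IL10RA, IL17RA, IL1R1) joins a partner needed for the signal (gp130, encoded by Il6st, IL10RB or IL1RAP), whereas the tumor necrosis factor receptors act as trimers of a single chain. Interleukin-6 and interleukin-10 receptors signal through JAK kinases and STAT3, and the others through adaptors that lead to NF-kB. Cells that lack IL6RA can still answer interleukin-6 when soluble IL6RA binds their gp130, a route called trans-signaling.

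Some libraries stood apart, and results are given with this in view. Wild-type MIA replicate 2 of the nuclei held 0 UMIs (unique transcript molecules) of Csf1r and 46 UMIs of 12 microglial markers, fewer than any null library, and Csf1r-null saline replicate 2 held 10 and 195. The other wild-type libraries held 11 to 23 UMIs of Csf1r and 268 to 469 of the markers, and the other null libraries 1 to 4 and 60 to 90. Both libraries were kept under their labels, and each test was repeated without them. Wild-type saline replicate 1 held 703 of the 838 striatal-like ventral nuclei, with 11 to 47 in each other library, and 291 SCPN-like nuclei (subcerebral projection neurons) against 627 to 931 in the others. The sorted libraries shared cell barcodes: 258 of the 375 cells of the E13 MIA replicate 2 carried a barcode also found in the P14 saline female library, where 0.26 would be shared by kit size alone. A shared barcode was therefore kept only in the library with most UMIs, which removed 0.357% to 16.2% of the cells of a library. The microglia summed to 58841 cells, 267 to 5480 per library, with 5990898 to 95789716 UMIs, and the nuclei to 41539 with 9120287 to 16408741 UMIs per library.

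The genes lie on 8 chromosomes of the mouse build GRCm38 (mm10). Il6ra is at chr3:89864059-89913196 on the minus strand, Il6st at chr13:112464070-112510086, Il17ra at chr6:120463247-120487559, Il17rd at chr14:27038941-27107286 and Il1r1 at chr1:40225080-40317257. Il1rap is at chr16:26581704-26730117, Tnfrsf1a at chr6:125349362-125362484, Tnfrsf1b at chr4:145213463-145246870 on the minus strand, Il10ra at chr9:45253837-45269149 on the minus strand and Il10rb at chr16:91406164-91425834. The sequences upstream of 3 of them are shown because their transcripts had opposite distributions: Il6ra rose with age in microglia, Il6st did so too but was also found in progenitors, and Il17rd was nearly absent from microglia and present in progenitors. They are from RefSeq (GRCm38.p6), 5' to 3' on the gene's strand, and end just before the annotated gene: chr3:89913197-89913446, chr13:112463820-112464069 and chr14:27038751-27038940. Capitals mark GAGGAA, the core that PU.1 (the myeloid ETS factor) prefers, and GGGCGG, the GC box of Sp1, each on either strand.
Il6ra: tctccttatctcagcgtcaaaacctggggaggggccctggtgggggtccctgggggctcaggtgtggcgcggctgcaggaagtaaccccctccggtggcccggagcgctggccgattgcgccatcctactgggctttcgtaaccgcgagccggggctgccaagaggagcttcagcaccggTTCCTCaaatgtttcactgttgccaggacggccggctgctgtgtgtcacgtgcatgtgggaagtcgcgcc
Il6st: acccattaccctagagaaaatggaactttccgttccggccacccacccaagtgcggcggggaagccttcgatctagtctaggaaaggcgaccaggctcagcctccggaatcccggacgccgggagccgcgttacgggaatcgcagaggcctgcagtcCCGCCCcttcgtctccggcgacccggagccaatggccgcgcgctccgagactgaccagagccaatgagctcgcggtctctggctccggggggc
Il17rd: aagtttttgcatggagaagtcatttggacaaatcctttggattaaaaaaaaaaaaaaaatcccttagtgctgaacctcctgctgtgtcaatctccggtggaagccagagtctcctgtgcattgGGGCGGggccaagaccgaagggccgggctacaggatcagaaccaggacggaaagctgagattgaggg
The Il6ra and Il6st sequences run over 250 bases and that of Il17rd over 190. The Il6ra sequence held 1 GAGGAA match, on the strand opposite the gene, and the other sequences each held 1 GGGCGG match. Of the 32851 promoters in the same table, 23.3% had GAGGAA and 32.7% had GGGCGG within 250 bases upstream. Among the 7 members that the table lists, 3 had GAGGAA (Il6ra, Il17rd, Tnfrsf1b, the match of Il17rd lying outside its shorter stretch, so that the sequences shown do not set it apart from Il6ra) and 5 had GGGCGG. A match is a run of letters and not a measured binding site.

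In microglia the interleukin-6 receptor genes rose with age. Age goes with collection and cannot be told apart from it, here and in every other comparison of ages. Levels are given as CPM (counts-per-million, a gene's share of all UMIs of the library) scaled by the TMM factors of edgeR, and changes with age are from an edgeR quasi-likelihood fit of all 18 libraries with Benjamini-Hochberg adjustment over 14138 genes. Il6ra, the interleukin-6 binding chain, was at 103, 93.5 and 101 in the E13 saline libraries, at 129, 179 and 194 at E15 and at 332, 300, 327 and 341 at P14. No value of one age overlapped with another. After MIA it was at 89.3, 95.9 and 90.7 at E13, at 157, 183 and 192 at E15 and at 313 and 328 at P14, and again the ages did not overlap. The log2 change from E13 to E15 was 0.75 (SE 0.14, adjusted p = 0.00108, edgeR) in saline and 0.95 (SE 0.14, adjusted p = 0.000143) in MIA libraries. From E15 to P14 it was 0.96 (SE 0.13, adjusted p = 1.24e-05) and 0.86 (SE 0.15, adjusted p = 0.000284). Il6ra stayed past the threshold in each of the 15, 17, 16 and 14 alternatives run for the comparisons of the ages.

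Il6st, the signal-carrying partner, was at 51.5, 54.9 and 51.6 at E13, at 45.1, 95.9 and 108 at E15 and at 199, 195, 166 and 178 at P14 after saline. After MIA it was at 51.7, 55.7 and 44.3, at 64.7, 93.2 and 124, and at 216 and 168. The P14 values lay above all embryonic values, whereas E15 replicate 1 was low in both treatments. The same libraries were also low in Csf1r, at 1542 and 1497 against 2297 to 2565 in the other E15 libraries, and 25.0% of the cells of E15 MIA replicate 1 were removed as cells with neuronal markers. In E15 saline replicate 1, 1059 of 4682 microglia were named dividing, against 128 of 2752 and 242 of 4073 in saline replicates 2 and 3. The part of these in the result was not tested. From E15 to P14 Il6st rose by 1.15 (SE 0.24, adjusted p = 0.000852) in saline and 1.03 (SE 0.28, adjusted p = 0.00803) in MIA libraries on the log2 scale. The latter call was lost without P14 MIA replicate 1 (0.85, adjusted p = 0.0865, edgeR). From E13 to E15 it rose after MIA (0.90, SE 0.26, adjusted p = 0.0158), and the change was 0.81 (adjusted p = 0.0655) without E13 MIA replicate 3 and 0.65 (adjusted p = 0.0753) without E15 MIA replicate 3. The saline change of 0.66 (SE 0.25, adjusted p = 0.0697) did not pass with edgeR, but passed with DESeq2 (0.65, SE 0.26, adjusted p = 0.0460). Without E15 saline replicate 1 it was 0.98 (SE 0.19, adjusted p = 0.00127, edgeR). In sorted cells summed per library, fewer cells with a transcript and less of it per cell cannot be told apart from these values alone.

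**Figure D1:**
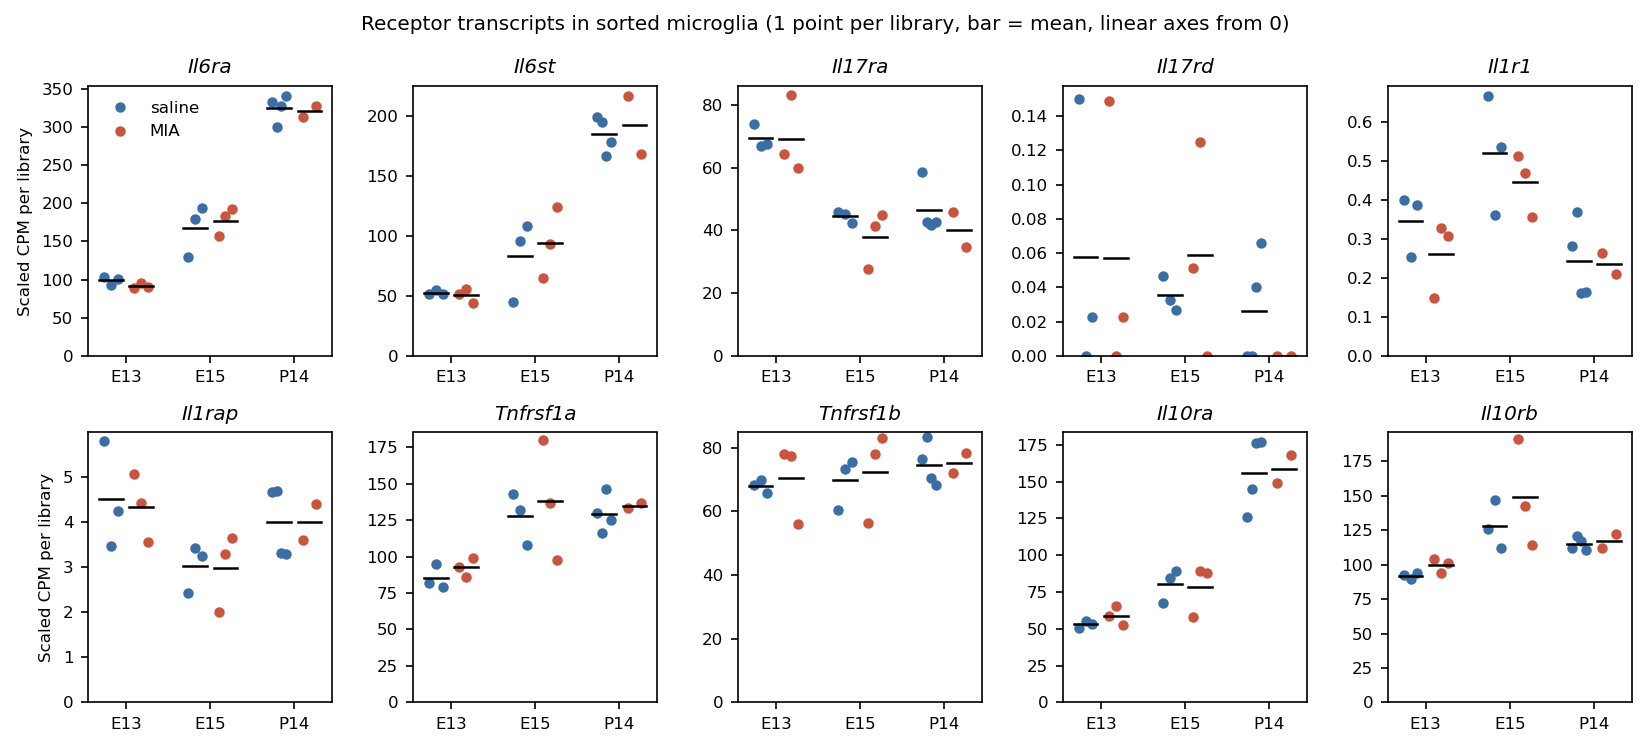
Scaled CPM of each receptor gene (linear axis from 0) in every sorted microglia library by age, with saline in blue and MIA in red; a point is a library and a bar the mean of its group. Il6ra runs from 89.3 to 103 at E13 to at least 300 at P14, and saline and MIA points overlap or adjoin at each age.

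The interleukin-10 receptor chains both rose between E13 and E15 in saline libraries, and Il10ra rose again from E15 to P14. Il10ra, the ligand-binding chain, was at 50.5, 55.3 and 53.0 at E13, at 67.6, 84.3 and 89.4 at E15 and at 126, 145, 176 and 177 at P14 after saline, with no overlap between ages. After MIA it was at 58.4, 65.5 and 52.4, at 57.8, 89.4 and 88.2, and at 149 and 168, and the E13 and E15 values overlapped. From E15 to P14 the log2 change was 0.95 (SE 0.16, adjusted p = 0.000131) in saline and 1.02 (SE 0.19, adjusted p = 0.000480) in MIA libraries, in all 17 and 14 alternatives past the threshold. From E13 to E15 it was 0.60 (SE 0.17, adjusted p = 0.0179) in saline libraries, and in MIA libraries 0.42 (SE 0.17, adjusted p = 0.0767), which became 0.40 (SE 0.14, adjusted p = 0.0401) with the replicate number as a block. The MIA change also passed with DESeq2 (0.44, adjusted p = 0.0450). In edgeR it passed without border macrophage-like, monocyte and dividing cells (0.52, adjusted p = 0.0396). Il10rb, the shared partner chain, was at 92.2, 89.7 and 94.1 at E13, at 126, 147 and 112 at E15 and at 112, 121, 117 and 111 at P14 after saline. After MIA it was at 104, 94.0 and 101, at 191, 143 and 114, and at 112 and 122, so that E15 lay above E13 in both treatments. It rose from E13 to E15 by 0.48 (SE 0.15, adjusted p = 0.0276) in saline and by 0.58 (SE 0.15, adjusted p = 0.00794) in MIA libraries. From E15 to P14 it did not pass (saline -0.15, SE 0.14, MIA -0.35, SE 0.17), except in MIA libraries without E15 replicate 3 (-0.51, adjusted p = 0.0118, edgeR). With 1 library fewer the early saline calls of both chains could be lost while the folds moved little. Il10ra was at 0.59 (adjusted p = 0.0524) and 0.60 (0.0529) without E13 saline replicate 1 or 3, and at 0.57 (0.0594) and 0.52 (0.0710) without E15 saline replicate 2 or 3, and at 0.53 (0.0836) with no cluster removed. Il10rb was at 0.49 (adjusted p = 0.0603), 0.46 (0.0866) and 0.49 (0.0650) without each of the E13 saline libraries, and at 0.37 (0.129, edgeR) without E15 saline replicate 2. Without E15 MIA replicate 1 the MIA change of Il10ra was 0.63 (adjusted p = 0.00726, edgeR).

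Of the tumor necrosis factor receptors, Tnfrsf1a rose early and Tnfrsf1b showed no change past the threshold. Tnfrsf1a, the widely expressed receptor with a death domain, was at 82.1, 94.6 and 79.0 at E13, at 143, 132 and 108 at E15 and at 130, 116, 146 and 125 at P14 after saline. After MIA it was at 92.9, 85.8 and 99.0, at 180, 137 and 97.9, and at 133 and 137, and here the E13 and E15 values overlapped. From E13 to E15 the log2 change was 0.58 in both treatments (saline SE 0.17, adjusted p = 0.0225, MIA SE 0.17, adjusted p = 0.0198), and from E15 to P14 it was 0.02 (SE 0.16) and -0.04 (SE 0.19). Without E13 saline replicate 1 or 3 or E15 saline replicate 2 the saline change was 0.57 (adjusted p = 0.0591), 0.53 (0.0834) and 0.56 (0.0658). The MIA change was 0.58 (adjusted p = 0.0515) and 0.53 (0.0722) without E13 MIA replicate 1 or 2, and 0.37 (0.0783, edgeR) without E15 MIA replicate 1. Tnfrsf1b, the receptor that is mainly found on immune and endothelial cells, lay between 55.9 and 83.4 in all 18 libraries, with log2 changes of 0.04 (SE 0.15) and 0.05 (SE 0.15) from E13 to E15 and of 0.10 (SE 0.14) and 0.06 (SE 0.17) from E15 to P14.

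Il17ra, the chain that interleukin-17 receptors share, moved the other way. It was at 73.8, 66.8 and 67.7 at E13 and at 45.9, 45.3 and 42.5 at E15 after saline, and at 64.5, 83.3 and 60.0 and then 27.8, 41.5 and 44.9 after MIA. The E15 values lay below the E13 values in both treatments. The log2 change was -0.64 (SE 0.18, adjusted p = 0.0168) in saline and -0.86 (SE 0.18, adjusted p = 0.00238) in MIA libraries, and from E15 to P14, where it was at 58.5, 42.8, 41.6 and 42.6 after saline and at 46.0 and 34.6 after MIA, it was 0.06 (SE 0.17) and 0.08 (SE 0.20). Without E13 saline replicate 1 or E15 saline replicate 3 the saline change was -0.58 (adjusted p = 0.0568) and -0.61 (0.0567). Without both small E13 MIA libraries, which leaves 1 library in that group, the MIA change was -0.67 (0.0787, edgeR). Microglia named dividing numbered 260 of 1035, 394 of 1690 and 617 of 3064 at E13 after saline. At E15 after saline they numbered 1059 of 4682, 128 of 2752 and 242 of 4073. After MIA they numbered 58 of 267, 49 of 350 and 1537 of 5480 at E13. At E15 after MIA it was 214 of 4064, 175 of 3201 and 55 of 1153. Without border macrophage-like, monocyte and dividing cells Il17ra was still called in both treatments, but some cycling cells stayed. Their part in the fall was not tested. Il17rd, a partner of IL17RA that also restrains fibroblast growth factor signaling, gave 0 to 0.150 CPM in a library and was below the filter on low counts in every comparison.

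The interleukin-1 receptor genes were low in microglia. Il1rap, the accessory chain, was at 5.80, 3.48 and 4.25 at E13, at 2.43, 3.43 and 3.24 at E15 and at 4.67, 4.70, 3.32 and 3.30 at P14 after saline, and none of its changes passed the threshold with TMM factors. Il1r1, the signaling receptor, lay between 0.149 and 0.666 in all libraries. It fell from E15 to P14 in saline libraries (-1.11, SE 0.38, adjusted p = 0.0214), a call lost in 7 of 17 alternatives, among them those without border macrophage-like, monocyte and dividing cells (-0.94, adjusted p = 0.0520), without E15 saline replicate 1 (-0.85, adjusted p = 0.129) or without the female or the male library of P14 saline replicate 3 (-0.96, adjusted p = 0.0671, and -0.95, adjusted p = 0.0709, edgeR).

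Counted together, 5 of the 9 members tested passed between E13 and E15 in saline libraries, where 23.8% of all genes did, and 5 of 9 in MIA libraries, where 29.1% did. From E15 to P14 it was 4 of 9 in saline and 3 of 9 in MIA libraries, beside 50.8% and 36.3% of all genes. The median log2 change of the members was 0.58 in both treatments between E13 and E15, and 0.10 and 0.08 from E15 to P14, while the median of all genes was between 0.01 and 0.04. The comparisons of ages share the E15 libraries. The E13 sums held 18 to 260 border macrophage-like cells and 49 to 1537 cells named dividing per library. The E15 sums held 43 to 481 and 55 to 1059, and the P14 sums 0 and 4 to 29. Without these cells and monocytes the saline changes from E15 to P14 were 0.99 for Il6ra, 0.99 for Il10ra and 1.07 for Il6st, all past the threshold. This fit does not leave out all cycling cells. It kept an unnamed embryonic cluster of 3540 cells with the DNA replication genes Dtl and Mcm6 among its top genes. It also kept another of 2662 cells whose best marker list was that of dividing cells. With 1 library fewer the early saline count was 1 without E13 saline replicate 1 (Il6ra), 2 without E13 saline replicate 3 or E15 saline replicate 2, and 3 without E15 saline replicate 3. The lost calls kept their direction, with the folds given for each gene. The MIA count was 1 (Il6ra) without both small E13 MIA libraries, a fit in which that group holds 1 library that is assumed to vary like the other groups, and in which Il17ra was at -0.67, Il6st at 1.08, Il10rb at 0.56 and Tnfrsf1a at 0.48. Scaling by library totals in place of TMM factors moved the median of all genes from E15 to P14 to 0.27 in saline and 0.24 in MIA libraries, and the split of all calls from 3493 higher and 3696 lower to 5325 and 2684 in saline, and from 2512 and 2623 to 4034 and 1997 in MIA libraries. Under that scaling Il6ra, Il6st and Il10ra were still past the threshold, and Il1r1 in saline libraries was not (-0.87, SE 0.38, adjusted p = 0.0587), while Il1rap in saline libraries passed (0.64, SE 0.26, adjusted p = 0.0403, edgeR).

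**Figure D2:**
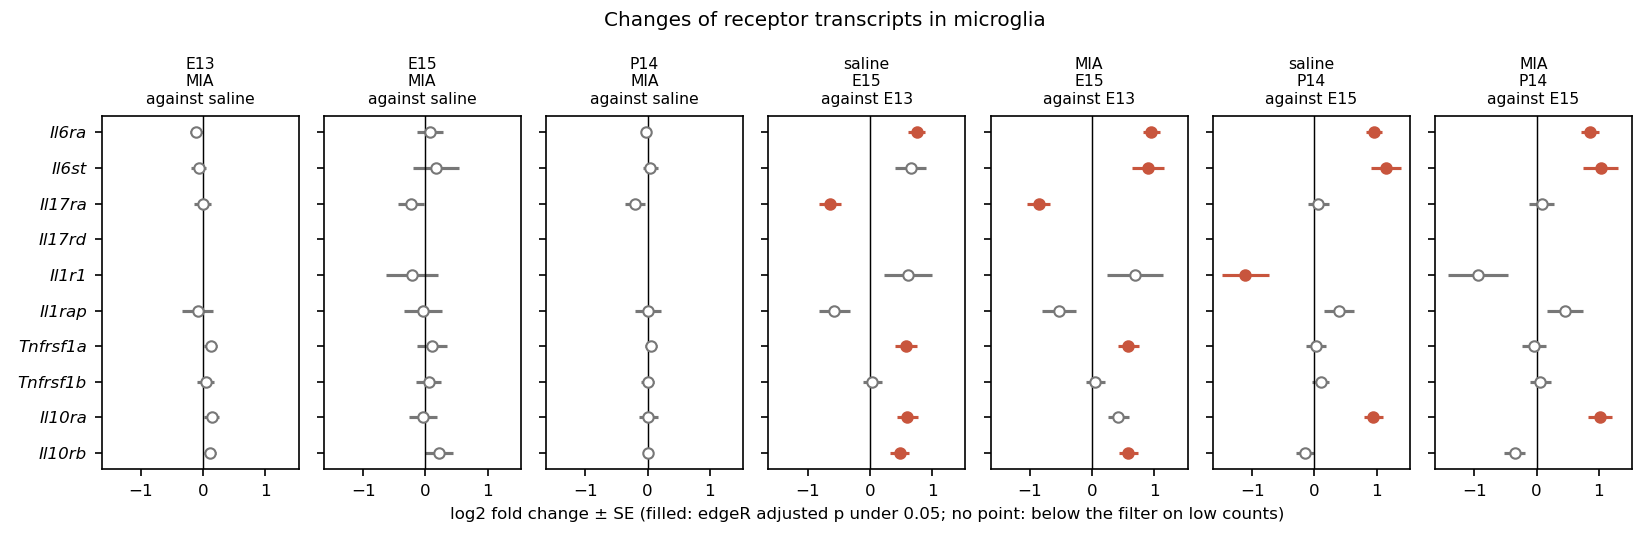
Log2 fold change with its SE (x axis) of each receptor gene (rows) in the 3 comparisons of MIA against saline and the 4 comparisons of ages; filled points passed an edgeR adjusted p of 0.05. All points of MIA against saline are open and lie between -0.23 and 0.22, while Il6ra is filled and at 0.75 or more in each comparison of ages.

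No member passed the threshold after MIA in microglia at any age. At E13, 0 of 8 members tested were called (0% of 12395 genes), at E15 0 of 9 (0% of 13160) and at P14 0 of 8 (0% of 12864), and DESeq2 called no member either. An unadjusted edgeR p under 0.05 was reached by 125, 75 and 475 of all genes and by 0 members. These are 1.01%, 0.570% and 3.69% of the genes, below the share of 0.05 that would pass without any change. The fit used no pairing by replicate number, and such low counts do not show that MIA changed little. DESeq2 called 2, 0 and 1 genes in all. The member log2 changes lay between -0.11 and 0.14 at E13 (SE 0.10 to 0.25), between -0.23 and 0.22 at E15 (SE 0.20 to 0.42) and between -0.21 and 0.05 at P14 (SE 0.08 to 0.21). For Il6ra they were -0.11 (SE 0.10), 0.07 (SE 0.21) and -0.03 (SE 0.08). Changes smaller than a few of these SEs were not detectable with this number of libraries. The MIA effect at E15 against that at E13 was called for 0 of 9 members (0% of 14138 genes; 115 genes and 0 members at an unadjusted p under 0.05), with differences of -0.22 to 0.24. The E13 comparison includes the small MIA replicates 1 and 2, without which 1 MIA library would remain.

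The share of microglia with a transcript rose for Il6ra, Il6st and Il10ra. Shares are of total UMIs, a scale on which the median of all genes was higher by 0.27 in saline and 0.24 in MIA libraries at P14 than at E15, and smaller rises in share from E15 to P14 were seen for Tnfrsf1a, Tnfrsf1b and Il17ra beside no called change in level. Because cells at P14 had medians of 3682 to 6787 UMIs and those at E13 and E15 at least 7860, each cell was thinned to 3000 UMIs, which left out 3013, 1507 and 2876 shallower cells at E13, E15 and P14. The median share over the 6 libraries of an age with at least 1 Il6ra UMI was 20.8% at E13, 36.7% at E15 and 63.4% at P14, and 55.9%, 70.2% and 83.7% before thinning. For Il6st it was 12%, 21.5% and 45.0%, and both chains of the interleukin-6 receptor were found in the same cell in 3.15%, 9.46% and 28.8%. Il10ra was found in 13.6%, 20.2% and 40.0%, and together with Il10rb in 3.38%, 6.79% and 12.9%. Tnfrsf1a went from 20.3% to 31.1% and 36.0%, Tnfrsf1b from 16.9% to 17.9% and 21.5%, and Il17ra from 14.3% to 9.59% and 13.4%. Il1r1 was found in a median of at most 0.0869% and Il1rap in at most 1.29%. Before thinning, Il6ra and Il6st were found together in 32.5%, 41.0% and 52.0%, so joint shares are not shares of cells with a whole receptor. Whether both chains met in a cell more often than their single shares imply was not tested. In cells of the same E15 libraries with neuronal markers, thinned alike, the median shares were 0.750% for Il6ra, 1.78% for Il6st, 0.922% for Il10ra, 2.90% for Il10rb and 2.92% for Tnfrsf1a. Some members were also measured in neuron-like nuclei (below), so these shares need not be background alone. For Il1rap such cells are no background at P14, where their median was 9.04% against 1.29% in microglia. At E15 their median was 0% against 0.903% in microglia, whereas the pooled shares were 1.49% and 0.722%. Before thinning, E15 MIA replicate 1 held 1369 of these cells, against 61 to 435 in each other E15 library. At P14 the median of such cells for Il6ra was 13.7% and their highest library 22.9%, below the lowest microglia library at 62.4%. Their P14 medians were 13.4% for Il6st, 5.50% for Il10ra, 11.7% for Il10rb and 13.2% for Tnfrsf1a, each above its E15 value. The part of this in the microglia shares was not tested.

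**Figure D3:**
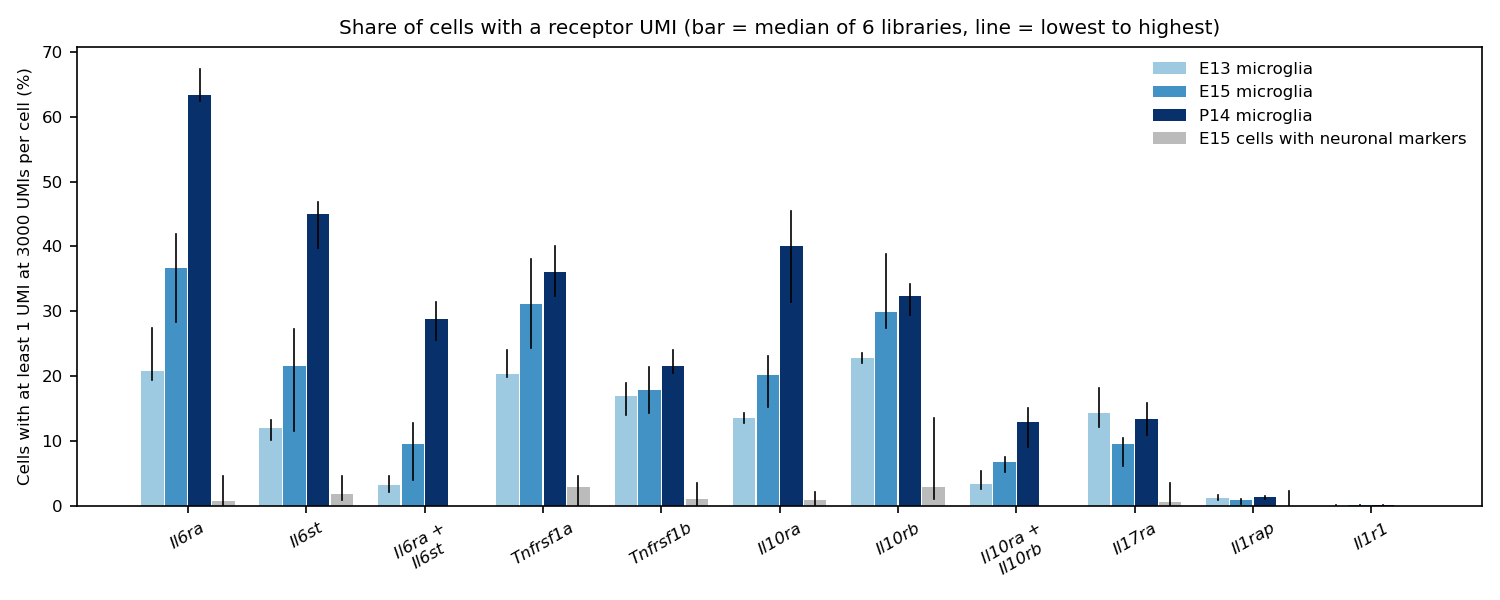
Percent of cells with at least 1 UMI after thinning to 3000 UMIs per cell (y axis). Shown are the single receptor genes except Il17rd, and the pairs Il6ra with Il6st and Il10ra with Il10rb. Cells with neuronal markers in the E15 libraries are in gray. Bars are medians of 6 libraries and lines run from the lowest to the highest. Il6ra climbs from 20.8% to 63.4% in microglia while the gray bar stands at 0.750%.

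The level of the receptors also differed between microglial clusters of the same library. The member genes took no part in the clustering, clusters were named from marker lists, and the values are descriptions without a test. In maturing-like microglia at E13 and E15, Il6ra (median log2 ratio 0.96), Il10ra (0.91), Il6st (0.80), Il10rb (0.55), Il17ra (0.45) and Tnfrsf1a (0.44) were above the unnamed microglia of the same library in 9 of 9 libraries. Dividing cells had more Il17ra (0.55) and Il6ra (0.45) in 12 of 12 libraries. In interferon-responsive-like microglia Il10ra was higher by 1.37 in 6 of 6 libraries. Ccl3 and Ccl4-high microglia combined more Il10rb (0.80, 7 of 7) with less Il10ra (-0.92, 0 of 7 higher) than the unnamed microglia. At P14 the same cluster type again had more Il10rb (0.38, 6 of 6) and less Il10ra (-0.52, 0 of 6), together with less Il6ra (-0.31) and Il6st (-0.35) in each library. Border macrophage-like cells at E13 and E15 had more Tnfrsf1a (0.46) and Il10rb (0.66) in 11 of 11 libraries and a median Il6st ratio of -0.41, with 2 of 11 above. The unnamed clusters include cells of few UMIs. In the embryo they also include a cluster of 3540 cells with the DNA replication genes Dtl and Mcm6 among its top genes. Another, of 2662 cells, had the dividing list as its best. The dividing cells are therefore not set against non-dividing microglia alone, and the part of these clusters in the ratios was not tested.

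**Figure D4:**
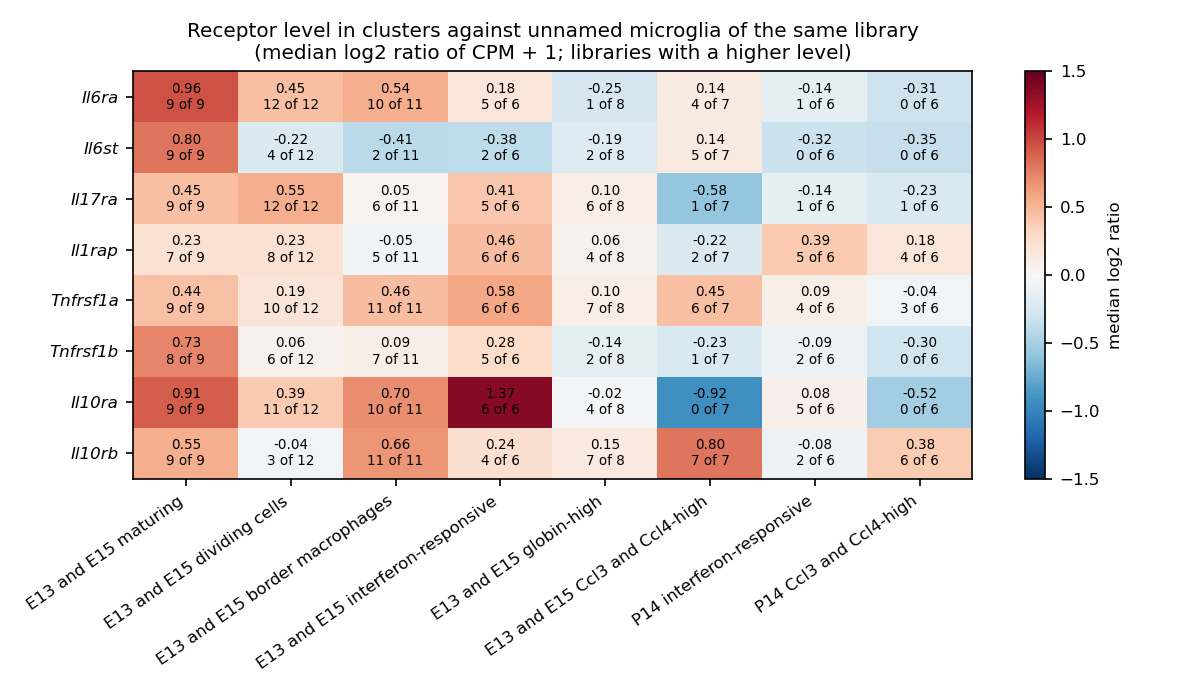
Median log2 ratio of CPM + 1 in a named cluster type over the unnamed microglia of the same library (color), with the number of libraries in which it was higher, for 8 receptor genes. Il10ra is reddest in interferon-responsive-like cells (1.37) and bluest in the Ccl3 and Ccl4-high cells of the embryo (-0.92), where Il10rb is at 0.80.

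Within the sorted libraries, microglia and cells with neuronal markers could be compared directly, here and in the nuclei as CPM of UMIs summed over libraries, without TMM factors. At E15 Il6ra was at 152 CPM in microglia (95% interval 151 to 154) and 6.43 (5.20 to 7.85) in the cells with neuronal markers, Tnfrsf1a at 128 and 14.7, and Il10ra at 71.0 and 3.48. These 3 genes and Il6st, Il17ra, Tnfrsf1b and Il10rb were higher in microglia in 6 of 6 E15 libraries. Il1r1 gave 1 UMI in the cells with neuronal markers, too few for a comparison. Il17rd was the reverse, with 33 UMIs (2.21 CPM, 1.52 to 3.1) in cells with neuronal markers and 11 UMIs (0.0470 CPM) in microglia, higher in microglia in 0 of 6 libraries. Il1rap gave 4.62 CPM (3.59 to 5.84) in cells with neuronal markers and 2.63 in microglia at E15, where microglia were higher in 3 of 6 libraries and 9175971 of the 14940166 UMIs of cells with neuronal markers were from MIA replicate 1. It gave 34.1 (26.9 to 42.6) and 4.44 at P14, where microglia were higher in 0 of 6 libraries. These intervals and those given for nuclei are exact Poisson intervals and cover counting error only.

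In the cortex nuclei Il10ra, Tnfrsf1b and Il6ra were mainly or most highly found in microglia-like nuclei, whereas the other receptors were also measured in progenitors, neurons or pericyte-like nuclei. Classes were named from markers, and 31 nuclei in all were microglia-like: 9 and 6 in wild-type saline replicates 1 and 2, 9 in wild-type MIA replicate 1, 0 in wild-type MIA replicate 2, 7 in Csf1r-null saline replicate 2 and 0 in the other null libraries. All 8 Il10ra UMIs of the 41539 nuclei, 7 of 12 Tnfrsf1b UMIs and 11 of 41 Il6ra UMIs (26.8%) were in them. In apical progenitor-like (AP) nuclei Il10ra and Tnfrsf1b gave 0 of 5758883 UMIs, which allows up to 0.521 CPM, and Il6ra gave 1 UMI. No other class exceeded 0.562 CPM for Il6ra, although 0 UMIs allow up to 20.5 CPM in the few pericyte-like nuclei and 5.64 in Cajal-Retzius-like nuclei, beside 1.31 CPM (0.820 to 1.98) in the empty droplets, and the part of free RNA in these values was not tested.

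Il6st had no such limit to microglia. It was at 22.9 CPM (19.2 to 27.2) in AP nuclei, 17.2 in dividing cells and 9.98 in intermediate progenitor-like (IP) nuclei, and between 3.73 and 4.78 in migrating, callosal (CPN), subcerebral (SCPN) and corticothalamic (CThPN) projection neuron-like nuclei. Empty droplets gave 5.35 (4.30 to 6.58). Here and below, such a value is the gene's share of free RNA and not the amount that free RNA adds to a nucleus. By library the AP values were 21.0 and 25.0 in wild-type saline, 25.5 and 16.1 in wild-type MIA, 17.4 and 21.6 in null saline and 32.5 and 23.4 in null MIA embryos. Each of these lay above all 8 library values of the 4 kinds of projection and migrating neurons and of the interneurons. Microglia-like nuclei gave 6 UMIs (110 CPM) and Cajal-Retzius-like nuclei 12 UMIs (22.6 CPM, 11.7 to 39.4).

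Il17rd was highest in pericyte-like nuclei and higher in progenitors than in most neurons. It was at 8.68 CPM (6.44 to 11.4) in AP nuclei and 10.6 in IP nuclei, against 1.28 to 3.1 in projection and migrating neurons and 1.90 in empty droplets, and the AP values of the 8 libraries, 4.72 to 16.2, lay above all values of migrating neurons, CPNs, SCPNs and CThPNs. Striatal-like ventral neurons were at 11.2 CPM, with 18 of their 19 UMIs in wild-type saline replicate 1. Pericyte-like nuclei gave 8 UMIs (54.7 CPM) and microglia-like nuclei 0. Il1r1 was found as 9 UMIs in all, 5 of them in pericyte-like nuclei (34.2 CPM), none in microglia-like nuclei. Tnfrsf1a was highest in pericyte-like nuclei (130 CPM, 19 UMIs) and at 16.3 in both AP and IP nuclei, above the 10.5 (8.98 to 12.1) of empty droplets. Il10rb was at 6.25 in AP nuclei (4.38 to 8.65) and above migrating neurons, SCPNs and CThPNs in every library, with 1.31 in empty droplets.

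Il1rap and Il17ra were spread differently. Il1rap was at 13.6 CPM in migrating neurons, 13 in AP nuclei and 13 in dividing cells, and at 0.0709 in SCPNs and 0.135 in CThPNs, below the 3.33 of empty droplets, and the ranges of migrating neurons and SCPNs did not overlap. Il17ra was at 10.6 in CPNs and 9.0 in migrating neurons, against 5.29 (4.25 to 6.51) in empty droplets, and at 184 in microglia-like nuclei (10 UMIs). In migrating neurons every library was above every CThPN and interneuron value. Of the 10 members, 7 were highest in microglia-like nuclei, though Il1rap by a single UMI there, and Il17rd, Il1r1 and Tnfrsf1a in pericyte-like nuclei. These are the classes with fewest nuclei and UMIs, where a single UMI weighs most. The share of all genes that are highest there was not determined, so the count is not a result about receptors.

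**Figure D5:**
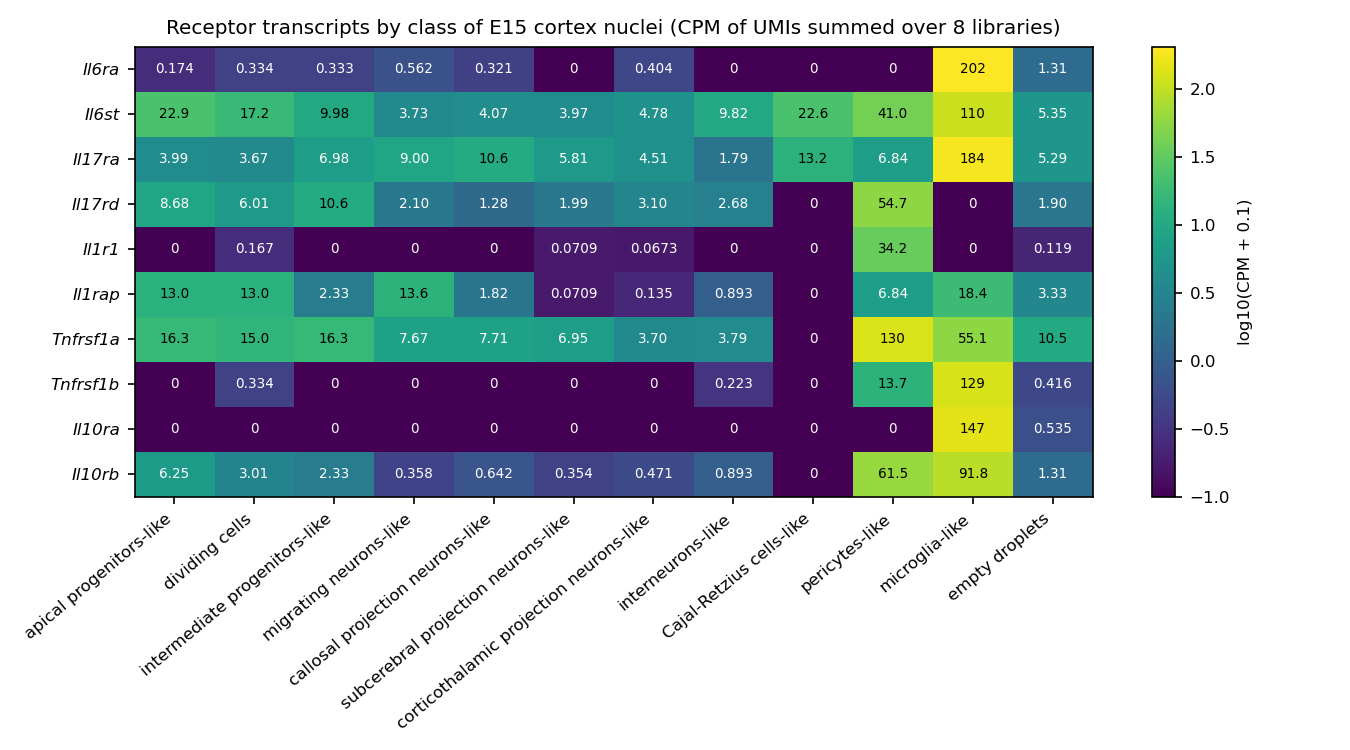
CPM of each receptor gene (rows) in the UMIs summed over 8 libraries for each class of E15 nuclei and for empty droplets of the 4 replicate 1 libraries (columns), with the color on a log10(CPM + 0.1) scale. Il10ra is at 147 in microglia-like nuclei and at 0 in every other class, while Il6st and Il17rd are higher in progenitors (22.9 and 8.68 in apical progenitor-like nuclei) than in projection neurons.

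Whether MIA or the absence of Csf1r changed the receptors in non-microglial nuclei could be tested for 4 members in 12 combinations of gene and class that passed the filter on low counts. None was called after MIA in wild-type embryos (0% of 67000 gene and class pairs), after MIA in null embryos (0%), for the difference between these effects (0%), or between null and wild type after saline (0%) or after MIA (0%). At an unadjusted edgeR p under 0.05 there were 4118, 953, 2029, 3904 and 876 pairs of all genes and 1, 1, 1, 0 and 1 of the members. The pairs of all genes were 6.15%, 1.42%, 3.03%, 5.83% and 1.31% of those tested. DESeq2 gave no adjusted p for 9 of the 12 combinations after MIA in wild type and for 9 between null and wild type after saline, and called none of the others. It called 60 pairs of all genes after MIA in wild type and 32 between null and wild type after saline. The fit with the replicate number as a block called 455 and 275 pairs of all genes and no member, and the fit without a filter on low counts 169 and 96. These comparisons share control libraries.

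The lowest unadjusted p was that of Tnfrsf1a in SCPNs after MIA in wild type (0.00648, edgeR). It was at 4.33 and 3.37 CPM in the wild-type saline libraries (4 and 6 UMIs) and at 11.3 and 12.4 in the wild-type MIA libraries (29 and 18 UMIs), and at 6.17, 5.34, 6.05 and 3.81 in the null saline and null MIA libraries. The wild-type groups, of 2 libraries each, did not overlap. The combination was picked for its low p, and the share of all gene and class pairs without overlap was not determined. The log2 change after MIA was 1.58 (SE 0.47, adjusted p = 0.972, edgeR) in wild type and -0.19 (SE 0.46, adjusted p = 1.000) in null embryos, and the difference between them was 1.77 (SE 0.66, adjusted p = 1.000). Without both libraries that go against their labels the values were 1.5 (SE 0.62), -0.24 (SE 0.62) and 1.74 (SE 0.89), in fits where wild-type MIA and null saline hold 1 library each that is assumed to vary like the other groups. The MIA values were close to the 10.5 CPM of empty droplets, and the part of free RNA in the difference was not tested. Il6st in AP nuclei changed by -0.18 (SE 0.38) after MIA in wild type and 0.53 (SE 0.41) in null embryos, and Il17ra in migrating neurons by -0.22 (SE 0.32) and 0.79 (SE 0.33, adjusted p = 1.000, edgeR).

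The other genes of these pathways were taken from 8 lists of 79 genes. In microglia 0 of 59, 60 and 60 genes tested were called after MIA at E13, E15 and P14. With age 10 rose and 1 fell of 64 between E13 and E15 in saline libraries, and 14 rose and 0 fell in MIA libraries, with median log2 changes of 0.22 and 0.24. Of all genes 13.2% rose and 10.6% fell in saline and 14.6% and 14.5% in MIA libraries. From E15 to P14, 25 rose and 9 fell in saline and 15 and 9 in MIA libraries (medians 0.26 and 0.14), beside 24.7% and 26.1% of all genes in saline and 17.8% and 18.6% in MIA libraries. The ligand Il6 itself was rare, with 27 UMIs in the E13, 111 in the E15 and 294 in the P14 saline libraries, and rose at both steps (1.54, SE 0.39, adjusted p = 0.00985, and 1.85, SE 0.33, adjusted p = 0.000190, edgeR). Clcf1, another ligand that signals through gp130, rose from E15 to P14 by 1.54 (SE 0.12, adjusted p = 3.89e-08) in saline and 1.41 (SE 0.14, adjusted p = 1.16e-06) in MIA libraries. Il1b, the interleukin-1 ligand, fell by 4.19 (SE 0.50, adjusted p = 3.48e-06) and by 2.52 (SE 0.57, adjusted p = 0.00252) on the log2 scale. Its soluble antagonist Il1rn went from 275 UMIs at E15 to 1 at P14 in saline libraries and from 391 to 3 in MIA libraries. The part of the border macrophage-like and dividing cells of the E15 sums in these falls was not tested. In saline libraries Sigirr, a receptor of the interleukin-1 family, fell by 1.28 (SE 0.18, adjusted p = 1.99e-05, edgeR). Il18rap, the interleukin-18 accessory chain, fell by 4.28 (SE 0.31, adjusted p = 1.57e-08). By contrast, Il1rapl1 of the same list went from 2 UMIs at E15 to 34 at P14 in saline libraries (adjusted p = 0.00568). Tnf, the tumor necrosis factor ligand, fell by 1.37 (SE 0.44, adjusted p = 0.0227, edgeR) in MIA libraries.

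The same lists held feedback genes of both signaling branches. Between E13 and E15, 4 of 13 NF-kB factors and feedback genes rose in saline libraries (13.2% of all genes), led by Nfkbia (1.02, SE 0.27, adjusted p = 0.0130) and Nfkbie (0.91, SE 0.16, adjusted p = 0.000806), which encode inhibitors that hold NF-kB in the cytoplasm. Birc2, which encodes the ubiquitin ligase cIAP1 of tumor necrosis factor receptor signaling, rose by 0.91 (SE 0.19, adjusted p = 0.00279), and Rhbdf2, which brings the shedding protease ADAM17 to the surface, fell by 0.43 (SE 0.12, adjusted p = 0.0160). In MIA libraries the ligand Osm (1.67, SE 0.38, adjusted p = 0.00358) and Socs3, the feedback inhibitor at gp130 (1.2, SE 0.36, adjusted p = 0.0201), rose. Of 9 JAK-STAT and SOCS genes, 5 rose from E15 to P14 in saline (24.7% of all genes) and 2 in MIA libraries (17.8% of all genes), and 0 fell.

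The genes whose log2 CPM followed a member most closely over the 18 libraries were Lpin1 and Retreg1 for Il6ra (Pearson r 0.996 for both), Mertk (0.992) and Plxdc2 (0.991) for Il6st, Dnajb4 (0.991) for Il10ra, Plscr3 (0.979) and Washc1 (0.975) for Tnfrsf1a, Selenop (0.964) and Asah1 (0.958) for Il10rb, March6 (0.957) and Pik3cd (0.953) for Tnfrsf1b, Iars (0.957) and Sympk (0.940) for Il17ra, Aqr (0.959) and Zdhhc5 (0.933) for Il1rap, and Gm35040 (0.795) and Cnr1 (0.775) for Il1r1. Among the members Il6ra was nearest to Il6st (0.972) and Il10ra to Il6ra (0.965). The libraries fall into 3 ages, and these values describe likeness over ages and depth and carry no test.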

How the data were processed

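The deposited values are raw UMI counts of each gene in each barcode, from Cell Ranger run by the authors against mm10. The submitters' processing notes name version 3.1.0, while the paper names later versions. Replicate 1 nuclei list all barcodes and replicate 2 nuclei only called ones, with a longer gene list, so genes of both lists were joined. Filters kept sorted cells of 500 or more genes whose mitochondrial share was 20% or less, and nuclei of 500 or more UMIs and 200 or more genes, and 4503 likely doublets were removed by Scrublet score, 0.8% per 1000 cells (scanpy 1.11.5). Cells were clustered on 2000 variable genes and named from marker lists, and microglial clusters and each class of nuclei were summed per library. In the sorted cells 1.46% to 25.0% of a library were removed for neuronal markers. Border macrophage-like and dividing cells stayed in the sums.

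Sums were tested with edgeR 4.0.16 (TMM factors, filterByExpr, quasi-likelihood test, Benjamini-Hochberg adjustment over all genes, threshold 0.05), MIA against saline within each age, ages in a fit of all 18 libraries, and nuclei in 8 libraries per class. DESeq2 1.42.0 and other settings were alternatives. Scripts were tested on simulated counts. Clusters were named from at least 3 markers. Empty droplets are barcodes of replicate 1 nuclei with at most 100 UMIs. A count of 0 allows up to 3 counts, and intervals are at 95%. Named genes are all members, up to 4 called genes per direction and comparison from the pathway lists, and the 2 genes most like each member, of which 1 is not reported here. The members and lists were chosen with earlier results of these data known, and the treatment of shared barcodes after the files were seen.

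Same-numbered libraries deviated together from their group means at E13 (r 0.143 to 0.521) and E15 (0.338 to 0.757), in 3 of 3 pairs each. Libraries of different number had r of -0.670 to 0.324 at E13 and -0.655 to 0.166 at E15. At E13, saline replicate 2 with MIA replicate 3 (0.324) and saline replicate 1 with MIA replicate 2 (0.321) were above the replicate 2 pair (0.143). The numbers may thus pair these libraries, from the data and not from the labels. The main tests used no pairing, and the number entered only as a block in an alternative. At P14 only 2 pairs exist. In nuclei (0.519 to 0.750) the number also stands for software, gene list and barcode filter.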

Additional observations from a re-analysis of the deposited data

Results flagged for a closer look

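Il17ra in P14 saline microglia had 1 library away from the others of its group. Replicate 1 was at 58.5 scaled CPM, and the nearest of the other 3 libraries at 42.8, so that the gap took up 0.930 of the range of the group. The limit used for such gaps is one that chance passes in about 1 of 20 groups. The log2 change of Il17ra after MIA at P14, -0.21 (SE 0.16), lay between -0.43 and -0.03 when single libraries were left out, and it was past the threshold in 0 of 16 alternatives.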

How the results depend on the processing

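Of 1147 values of members in microglia under an alternative, 1106 kept their side of the threshold, 33 lost and 8 gained a call, and 119 uncalled values changed sign; of 685 in nuclei with an adjusted p all stayed uncalled, 62 with another sign. No called value reversed. With 1 library left out, the number of members called between E13 and E15 in saline libraries (5) was 1 to 6, and from E15 to P14 3 to 4 in saline and 2 to 4 in MIA libraries. In MIA libraries from E13 to E15 (5) it was 4 to 5 with 1 library left out, 1 without both small E13 libraries (which leaves 1 library in that group) and 3 with no cluster removed, where cells with neuronal markers stay in the sums. The Il6ra share at E15 was 70.2% unthinned and 36.7% thinned.

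With the replicate number as a block, Il10ra in MIA libraries from E13 to E15 was called (0.40, adjusted p = 0.0401, edgeR) and no other member call changed. In wild-type nuclei after MIA the block called 455 gene and class pairs of all genes against 0, and between null and wild type after saline 275. Without a filter on low counts it was 169 and 96, with DESeq2 60 and 32, without both libraries that go against their labels (1 library left in each of their groups) 7 and 4, without wild-type saline replicate 2 19 and 3, and with nuclei of at least 1000 UMIs 0 and 2. For MIA in null embryos, the difference between the effects, and null against wild type after MIA the counts were 1, 3 and 7 with the block, 5, 12 and 19 without the filter, and 1, 19 and 8 without both libraries. Without null saline replicate 2 the difference had 1, and with all nuclei summed and both libraries left out the MIA comparisons had 1 and 2. In microglia, E13 MIA calls of all genes (0) were 2 with DESeq2, 5 with the block, 6 without MIA replicate 3 and 1 without saline replicate 1, and P14 calls (0) were 1 with DESeq2. Calls between E13 and E15 in saline libraries (3364) were 2023 to 4545 with 1 library left out, in MIA libraries (4113) 1823 without both small libraries, and from E15 to P14 in MIA libraries (5135) 3123 to 5657. The cause of these changes was not tested. In nuclei 6 members passed the filter on low counts in no class.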
